A study of Mus musculus with 4 samples.

Results

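The chemokines Ccl17, Ccl22 and Ccl24 were followed across 4 arrays of bone marrow-derived macrophages (BMDMs), 1 array for each condition. The genes were found by these names, each with 1 non-control probe, so 3 probes and 3 genes out of 31049 probes with a gene symbol, for 23345 genes. The 3 genes were chosen for their values on these same arrays, so their levels and ratios are a description and carry no test. All cultures came from 10-week-old C57BL/6J mice and were differentiated for 6 days with L929 supernatant, a source of M-CSF, and stimulated for 2 days. Wild-type M1 BMDMs received 20 ng per ml IFN-γ and 100 ng per ml LPS, and wild-type M2 BMDMs received 50 ng per ml IL-4. Lamtor1-deficient M2 BMDMs carried Lamtor1 flox/flox with LysM-Cre, are labelled p18 (2400001E08Rik) -/-, and received the same dose of IL-4. Torin1-treated M2 BMDMs were wild-type cells given 250 nM Torin1, an ATP-competitive inhibitor of the mTOR kinase, together with that dose of IL-4. LysM-Cre acts in cells of the myeloid lineage, so other cells of a marrow culture keep the floxed gene. Littermate controls in the study were Lamtor1 flox/flox mice, and the array methods call the other cells only wild-type.

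Chemokines are small secreted proteins that guide leukocytes through G protein-coupled receptors. Ccl17 (also called TARC) and Ccl22 (also called MDC) are ligands of Ccr4, a receptor of Th2 and regulatory T cells, and Ccl24 (eotaxin-2) is a ligand of Ccr3, the eosinophil receptor. Transcription of all of them is known to rise with IL-4, which signals through the IL-4 receptor and STAT6 and polarizes macrophages to the alternatively activated M2 state. Lamtor1 anchors the Ragulator complex on the lysosome, where mTORC1 is activated by amino acids. The Lamtor1-deficient and Torin1-treated arrays thus show expression under IL-4 without this anchor and with mTOR inhibited. There was no array of unstimulated BMDMs, so a rise with IL-4 itself was not measured here.

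The 3 chemokines were each read by a single 60-base probe, and the first 30 bases of each are shown because every value below rests on them. In the array annotation on mm9, the Ccl17 probe lies on the plus strand at chr8:97335770-97335829, the Ccl22 probe on the plus strand at chr8:97274709-97274768 and the Ccl24 probe on the minus strand at chr5:136046667-136046726. Whether each lies in coding sequence or in a UTR was not assigned, because no mm9 gene model was used here.
Ccl17 probe: tttggagacgccagggctgctgtccatggt
Ccl22 probe: tggtattataagctatagttatatttatat
Ccl24 probe: ccaaggcagtgagaaccaagtttgctgtcc
The Ccl22 probe is rich in A and T, with a GC content of 26.7%, and 0.911% of all probes have a lower one. The Ccl17 and Ccl24 probes both have a GC content of 55.0%, against a median of 43.3% over all probes. Among genes above background whose probes had a GC content of 30% or less, 12.6% were 2-fold or more higher in Lamtor1-deficient than in wild-type M2 BMDMs, against 10.5% of genes with a higher GC content.

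Each level below is the processed signal of the probe divided by the 75th percentile of its array, and is called the normalised signal. The error after a processed signal is the scanner software's own estimate for that spot, and it covers technical error only. A probe that the software did not mark as well above background has no measured level on that array, and a ratio against it is given as a lower limit. This percentile came to 595 on the M2 array, 536 on the Lamtor1-deficient, 470.0 on the Torin1 and 287 on the M1 array, and between 50.9% and 55.5% of probes were well above background. The Lamtor1 probe gave processed signals of 14688 ± 1469 in M1, 39460.2 ± 3946 in M2, 833 ± 83.4 without Lamtor1 and 35232 ± 3523 with Torin1. On the array labelled deficient, Lamtor1 stood at 2.34% of its M2 level, as the label says.

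Ccl17 was high in M2 BMDMs, higher after loss of Lamtor1 and low after Torin1. Its processed signal was 881 ± 88.2 in M2, 4845 ± 485 in Lamtor1-deficient, 55.4 ± 6.73 in Torin1-treated and 8.15 ± 4.64 in M1 BMDMs, where it was not well above background. The normalised signal was 1.48 in M2, 9.04 without Lamtor1 and 0.118 with Torin1. The order of these 3 levels was Lamtor1-deficient, M2 and Torin1-treated, and neighbours in it differed by 6.10-fold and 12.6-fold. Torin1-treated BMDMs lay above M1 BMDMs by at least 1.80-fold, and the log2 difference was 0.03 with normexp background correction.

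Ccl22 was high in Lamtor1-deficient BMDMs and near or below the background limit on the other arrays. Its processed signal was 766 ± 76.7 without Lamtor1 and 24.5 ± 4.29 with Torin1, and 18.7 ± 5.09 in M2 and 4.09 ± 4.10 in M1 BMDMs, neither of which was well above background. The normalised signal was 1.43 without Lamtor1 and 0.0521 with Torin1. The Torin1 level stood just above the lowest signal counted as well above background on that array, 15.7, and exceeded that of M2 BMDMs by at least 1.43-fold. The log2 difference between these arrays was 0.73 with a scanner error of 0.47, and with median scaling, quantile normalization and normexp it was 0.48, 0.39 and 0.40, each smaller than this limit. M2 and M1 BMDMs have no order.

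Ccl24 was highest in M2 BMDMs, stood at 25.1% of that level after loss of Lamtor1 and was low in both other arrays. Its processed signal was 10162 ± 1016 in M2, 2300.0 ± 230.0 in Lamtor1-deficient, 70.1 ± 7.95 in Torin1-treated and 79.3 ± 9.09 in M1 BMDMs, all well above background. The normalised signal was 17.1 in M2, 4.29 in Lamtor1-deficient, 0.276 in M1 and 0.149 in Torin1-treated BMDMs. The M1 level was 1.85-fold above the Torin1 level, with a log2 difference of 0.89 that fell to 0.32 when arrays were scaled to their medians. The scanner error of this difference was 0.23, and M1 stayed above Torin1-treated BMDMs in every setting tried.

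**Figure D1:**
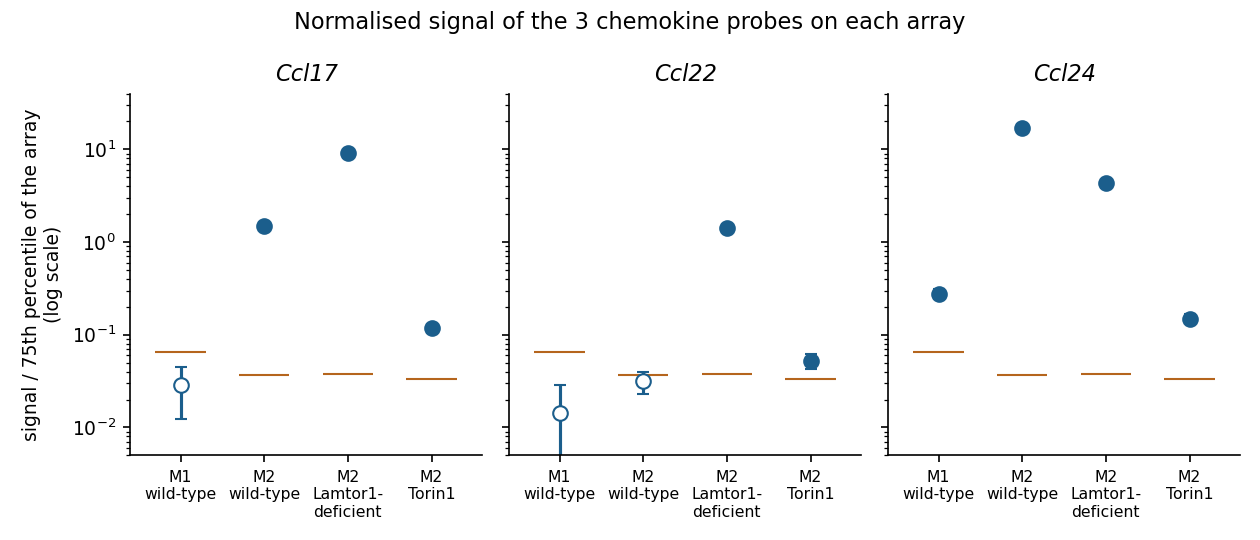
Normalised signal (processed signal over the 75th percentile of the array, log scale) of the Ccl17, Ccl22 and Ccl24 probes on each of the 4 arrays, 1 spot each. Bars are the scanner error, open circles are signals not well above background, and orange lines mark the lowest signal counted as well above background on that array; Ccl17 and Ccl22 peak in Lamtor1-deficient BMDMs at 9.04 and 1.43, and Ccl24 peaks in M2 BMDMs at 17.1.

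After loss of Lamtor1, the Ccr4 ligands were higher and the Ccr3 ligand was lower. Against wild-type M2 BMDMs, Ccl17 was 6.10-fold higher, with a log2 ratio of 2.61 and a scanner error of 0.20. Ccl22 was at least 39.3-fold higher, since only its Lamtor1-deficient signal was well above background. With normexp, which adds an offset to all signals, its log2 ratio was 3.50, which is below this limit. Ccl24 was 3.98-fold lower, with a log2 ratio of -1.99 and a scanner error of 0.20. The members thus held 2 genes past 2-fold upwards and 1 downwards, where 10.5% of the 15402 genes above background on at least 1 of these arrays were higher and 10.5% were lower. These values chose the members, so nothing is read from the counts.

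With Torin1, Ccl17 and Ccl24 were lower and Ccl22 was near background. Ccl17 was 12.6-fold lower than in M2 BMDMs, with a log2 ratio of -3.65 and a scanner error of 0.23. Ccl24 was 115-fold lower, with a log2 ratio of -6.84 and a scanner error of 0.22. With normexp these log2 ratios were -2.65 and -5.90. Ccl24 held rank 28 from the lowest among 15786 genes. So 2 members were lower, where 15.2% of genes above background were lower and 15.0% higher. With arrays scaled to their medians, 35.1% of the genes past 2-fold were higher, against 49.6% at the 75th percentile.

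In M1 BMDMs all 3 chemokines were low or not detected. Ccl24 was 61.8-fold lower than in M2 BMDMs, with a log2 ratio of -5.95 and a scanner error of 0.22, and the ratio was -5.21 with normexp and -6.77 with arrays scaled to their medians. Ccl17 was at least 22.6-fold lower, and its log2 ratio was -2.69 with normexp, which is a smaller fall than this limit. Ccl22 had no signal above background in M1 or M2 BMDMs and has no ratio. The 2 members with a ratio were both lower, where 27.8% of genes above background were lower and 28.4% higher. Scaling to the medians turned this split from 50.5% to 25.4% of the genes past 2-fold being higher.

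Set directly against each other, the Lamtor1-deficient array held more of every member than the Torin1 array. All 3 probes were well above background on both. Ccl17 was 76.7-fold higher, with a log2 difference of 6.26 and a scanner error of 0.23. Ccl22 was 27.4-fold higher, with a log2 difference of 4.78 and a scanner error of 0.29. Ccl24 was 28.8-fold higher, with a log2 difference of 4.85 and a scanner error of 0.22. With normexp the log2 differences were 5.15, 3.10 and 3.94 for Ccl17, Ccl22 and Ccl24. The differences above held ranks 31, 113 and 103 from the highest among 15763 genes, of which 15.0% were 2-fold or more higher and 13.5% lower. Of the genes past 2-fold, 52.6% were higher in the Lamtor1-deficient array, and the share was 70.5% with arrays scaled to their medians and 43.0% with the percentile taken over probes well above background. Ccl17 and Ccl24 reached this difference from different sides of the M2 level, since Ccl17 lay above it without Lamtor1 and below it with Torin1, and Ccl24 lay below it in both. Both comparisons share the M2 array, and Ccl17 was 1 of 146 genes that were 2-fold or more above M2 without Lamtor1 and as far below it with Torin1, 0.868% of the 16815 genes above background on at least 1 of the arrays.

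Ccl22, Cx3cl1 and Ccl17 follow each other on mouse chromosome 8 in RefSeq, and the Ccl22 and Ccl17 probes lie 61.1 kb apart on mm9. Cx3cl1, the membrane-bound chemokine fractalkine, gave a processed signal of 298 in M2, 846 without Lamtor1 and 92.1 with Torin1, and was not well above background in M1 BMDMs. Its log2 ratio to M2 was 1.66 after Lamtor1 loss and -1.35 after Torin1, each with a scanner error of 0.21. Cx3cl1 therefore lay on the same sides of M2 as Ccl17. The next genes beyond Ccl17 stayed within 2-fold of M2 after both treatments. Their log2 ratios, first without Lamtor1 and then with Torin1, were 0.08 and -0.79 for Ciapin1, 0.51 and 0.22 for Coq9, and 0.78 and 0.91 for Polr2c. On the far side of Ccl22, Pllp was not well above background on any array, and Arl2bp and Rspry1 were within 2-fold of M2 after Lamtor1 loss and with Torin1. Around Ccl24, Hip1 was below M2 on every other array, as Ccl24 was, and the rest were not. Ccl26, the adjacent eotaxin gene, was not well above background on any array. Hip1 had log2 ratios of -0.78 without Lamtor1, -1.11 with Torin1 and -4.19 in M1 BMDMs. The ratios without Lamtor1 and with Torin1 were 0.60 and 2.04 for Por, 0.91 and 1.06 for Tmem120a, 0.14 and 0.52 for Pom121, and 0.31 and 0.36 for Rhbdd2.

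**Figure D2:**
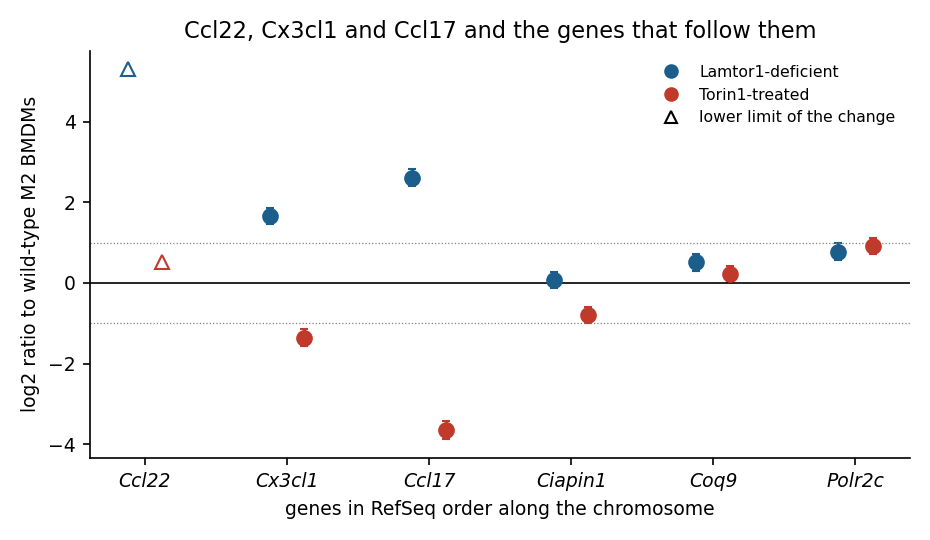
Log2 ratio to wild-type M2 BMDMs after Lamtor1 loss (blue) and after Torin1 (red) for 6 genes in their RefSeq order on mouse chromosome 8, 1 array per condition. Bars are scanner errors, triangles are lower limits and dotted lines mark 2-fold; Cx3cl1 and Ccl17 lie above M2 after Lamtor1 loss and below it after Torin1, and Ciapin1, Coq9 and Polr2c stay within 2-fold.

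Because these neighbouring genes were higher in the same array, the 250 bases before their start sites are shown for Ccl22 and Ccl17, from RefSeq on GRCm38.p6. Both are on the plus strand, at chr8:94745434-94745683 for Ccl22 and chr8:94810203-94810452 for Ccl17. Capitals mark matches, on either strand, to the motifs searched, which were TTC and GAA with 4 bases between them (the spacing of STAT6 sites), the same letters with 3 bases between them (the spacing bound by other STAT proteins), GGG and CC with 5 bases between them (an NF-kappaB-like pattern), GAGGAA (a PU.1 core) and TATAAA.
Ccl22 promoter: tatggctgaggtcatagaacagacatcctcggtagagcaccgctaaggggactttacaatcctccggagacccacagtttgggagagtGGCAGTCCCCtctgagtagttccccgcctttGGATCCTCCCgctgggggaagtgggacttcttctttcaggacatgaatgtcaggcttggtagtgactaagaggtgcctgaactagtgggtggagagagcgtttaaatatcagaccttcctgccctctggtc
Ccl17 promoter: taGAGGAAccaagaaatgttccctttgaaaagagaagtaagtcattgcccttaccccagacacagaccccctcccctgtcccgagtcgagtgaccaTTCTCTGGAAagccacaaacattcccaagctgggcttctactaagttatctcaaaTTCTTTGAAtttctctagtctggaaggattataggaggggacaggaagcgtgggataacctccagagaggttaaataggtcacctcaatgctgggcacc
The Ccl17 window held 1 match with the 4-base spacing, starting 154 bases before the start site, and 1 with the 3-base spacing, starting 99 bases before it. The search ran from 250 bases before to 50 bases after each start site, and over 32851 promoter windows of that length 6.95% and 8.30% held these spacings. It also held GAGGAA 248 bases before the start site, a motif found in 28.3% of promoters. The Ccl22 window held no match with either STAT spacing and 2 with the NF-kappaB-like pattern, 162 and 131 bases before the start site, a pattern found in 50.8% of promoters. TATAAA, in 13.6% of promoters, was in neither. The window of Cx3cl1, which lies between them, held GAGGAA 93 and, on the other strand, 66 bases before its start site and TATAAA 6 bases before it, with no match to the STAT or NF-kappaB-like patterns. The Ccl24 promoter was not used here.

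Among the other CC chemokine ligands, most were likewise higher in the Lamtor1-deficient than in the Torin1 array. Of the 18 listed, 17 had a probe, and 13 of these were above background on at least 1 of the arrays. In Lamtor1-deficient over Torin1-treated BMDMs, 10 of the 13 were 2-fold or more higher and 1 was lower, with a median log2 ratio of 1.62 against 0.06 over all genes above background, of which 15.0% were higher and 13.5% lower. Against M2 BMDMs, 5 were higher and 2 lower after Lamtor1 loss, against 10.5% of all genes in each direction. With Torin1, 2 were higher and 8 lower, against 15.0% and 15.2%.

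Ccl11 (eotaxin-1), which shares the receptor Ccr3 with Ccl24, had levels ordered like those of Ccl17. Its processed signal was 65.1 in M2 and 441 in Lamtor1-deficient BMDMs, and it was not well above background in Torin1-treated and M1 BMDMs. The log2 ratio after Lamtor1 loss was 2.91 with a scanner error of 0.23, and the level after Torin1 was at least 3.26-fold lower than in M2 BMDMs. The eotaxin genes Ccl11 and Ccl24 thus lay on opposite sides of M2 after Lamtor1 loss.

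The monocyte attractants Ccl2 and Ccl7 were also above M2 after Lamtor1 loss, with log2 ratios of 1.20 and 1.19, and below it after Torin1, with -1.69 and -1.35. Ccl3 and Ccl4, attractants of monocytes and T cells, had log2 ratios of 2.54 and 1.62 without Lamtor1 and of 1.29 and 0.04 after Torin1. Ccl6, Ccl8, Ccl12 and Ccl25 were within 2-fold of M2 after Lamtor1 loss and had log2 ratios of -2.91, -2.54, -5.46 and -1.64 after Torin1. Ccl9 was below M2 in both arrays, by log2 ratios of -2.17 and -3.79, as Ccl24 was. Ccl5, named after its values were seen as the ligand 2-fold or more lower in the Lamtor1-deficient than in the Torin1 array, had log2 ratios of -1.33 and 2.87. The scanner error of these log2 ratios was 0.20, and 0.33 for Ccl12 after Torin1. In M1 BMDMs, 8 of the 13 ligands were 2-fold or more higher than in M2 BMDMs and 4 lower, against 28.4% and 27.8% of all genes.

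**Figure D3:**
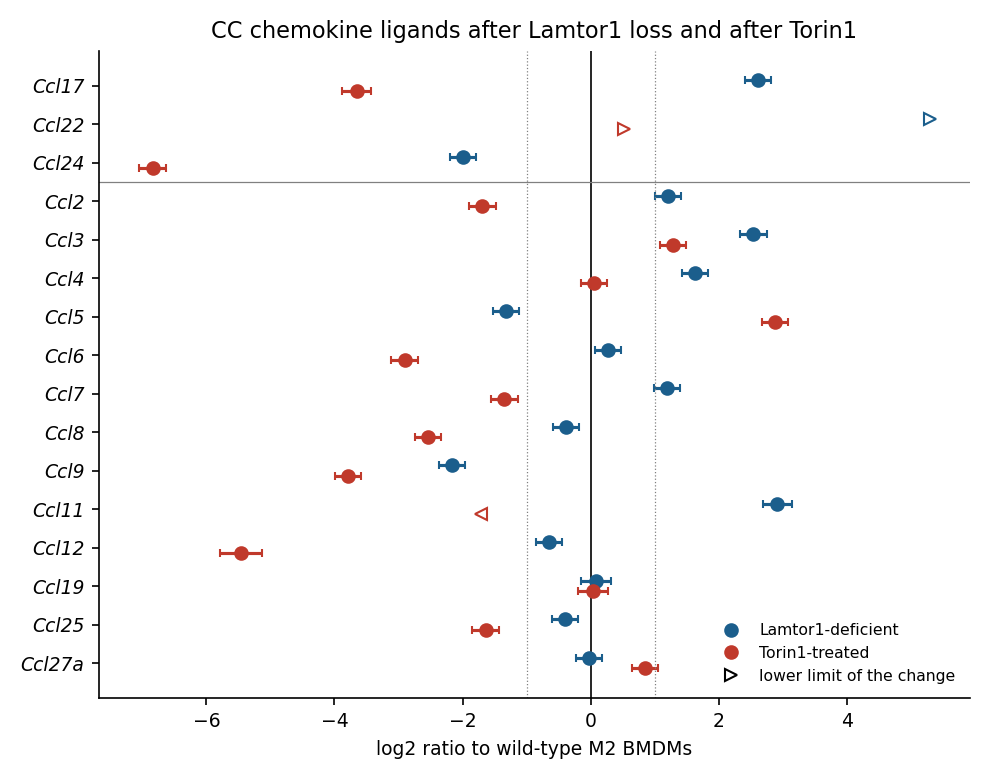
Log2 ratio to wild-type M2 BMDMs of Ccl17, Ccl22 and Ccl24 (top) and of 13 other CC chemokine ligands after Lamtor1 loss (blue) and after Torin1 (red), 1 array per condition. Bars are scanner errors, open triangles are lower limits of the change and dotted lines mark 2-fold; Ccl17, Ccl2, Ccl7 and Ccl11 lie above M2 after Lamtor1 loss and below it after Torin1, and Ccl5 does the reverse.

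Of the receptors of the members, Ccr3 was well above background in M2 BMDMs and Ccr4 was not. Ccr4, the receptor of Ccl17 and Ccl22, was not well above background on any array. Ccr3, the receptor of Ccl24, gave a processed signal of 1552 in M2, 41.0 in Torin1-treated and 183 in M1 BMDMs, and was not well above background in Lamtor1-deficient BMDMs. It was at least 66.8-fold lower after Lamtor1 loss, and had log2 ratios of -4.90 after Torin1 and -2.03 in M1 BMDMs. Like Ccl24, it was highest in M2 BMDMs. Of the scavenging receptors that bind such chemokines without signalling, Darc was not well above background on any array and Ccbp2 was so only in M1 BMDMs, at 25.9. Ccrl2, a receptor-like protein related to them, was higher than in M2 on every other array, with log2 ratios of 2.05 after Lamtor1 loss, 3.55 after Torin1 and 3.81 in M1 BMDMs.

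Genes of IL-4 signalling were read on the same arrays. Of 20 genes of the receptor, STAT6 and its regulators, 2 were 2-fold or more higher and 2 lower after Lamtor1 loss, against 10.5% of all genes in each direction. After Torin1, 2 were higher and 7 lower, against 15.0% and 15.2%. Their median log2 ratios were -0.13 and -0.68, against 0.08 and 0.05 over all genes above background. In Lamtor1-deficient over Torin1-treated BMDMs, 5 of the 20 were higher and 1 lower, against 15.0% and 13.5% of all genes. With arrays scaled to their medians, which raises the higher calls over the whole array too, these were 11 and 0. Stat6 itself had log2 ratios of 0.06 and 0.08. Il4ra, the ligand-binding chain of the receptor, had -0.86 after Lamtor1 loss and -1.74 after Torin1. Irf4, a factor that acts downstream of STAT6 and Kdm6b, had -0.75 and -1.65, and Kdm6b, an H3K27 demethylase, had 0.48 and 0.63. Klf4, a factor that cooperates with STAT6, had -0.16 and -4.07, so that it was within 2-fold of M2 in the Lamtor1-deficient array only. Myc had -1.34 and -2.66, Socs1, an inhibitor of JAK signalling, -0.66 and -2.15, Pparg, a nuclear receptor of M2 macrophages, 0.43 and 0.51, and Egr2 -0.88 and -0.11.

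Most other IL-4-induced macrophage genes did not share the higher levels of Ccl17 and Ccl22 in the Lamtor1-deficient array. Of 22 above background, 14 were 2-fold or more lower and 3 higher after Lamtor1 loss, with a median log2 ratio of -1.51, against 10.5% of all genes in each direction. After Torin1, 13 were lower and 0 higher, against 15.2% and 15.0%, and 11 of the 13 were measured on both arrays. The median was -1.53, or -1.20 with the genes at their limits. Il4i1, a secreted amino acid oxidase, had log2 ratios of -5.05 without Lamtor1 and -7.69 with Torin1. The lectin receptor Mrc1 had -1.42 and -2.64, and Pdcd1lg2, which encodes the checkpoint ligand PD-L2, -1.54 and -1.84. Chi3l3 (Ym1) had 0.22 in both. Mgl2, another lectin, had -2.33 after Lamtor1 loss and -0.45 after Torin1. Retnla (RELM-alpha), like Ccl24, was lower after Lamtor1 loss, with -2.17, and had no signal well above background with Torin1. Lamtor1-deficient over Torin1-treated, 8 of 21 of these genes were 2-fold or more higher and 2 lower, against 15.0% and 13.5% of all genes, with a median log2 ratio of 0.79 against 0.06.

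Targets and members of the NF-kappaB family, which are known to act on Ccl17 and Ccl22 in other cells, were also read. Of 14 genes, 0 were 2-fold or more higher and 3 were lower in the Lamtor1-deficient array, against 10.5% of all genes in each direction. In the Torin1 array 1 was higher and 6 lower, against 15.0% and 15.2%. In M1 BMDMs 9 of the 14 were higher than in M2 BMDMs and 0 lower, against 28.4% and 27.8%. The part of this family in the chemokine levels was not tested.

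**Figure D4:**
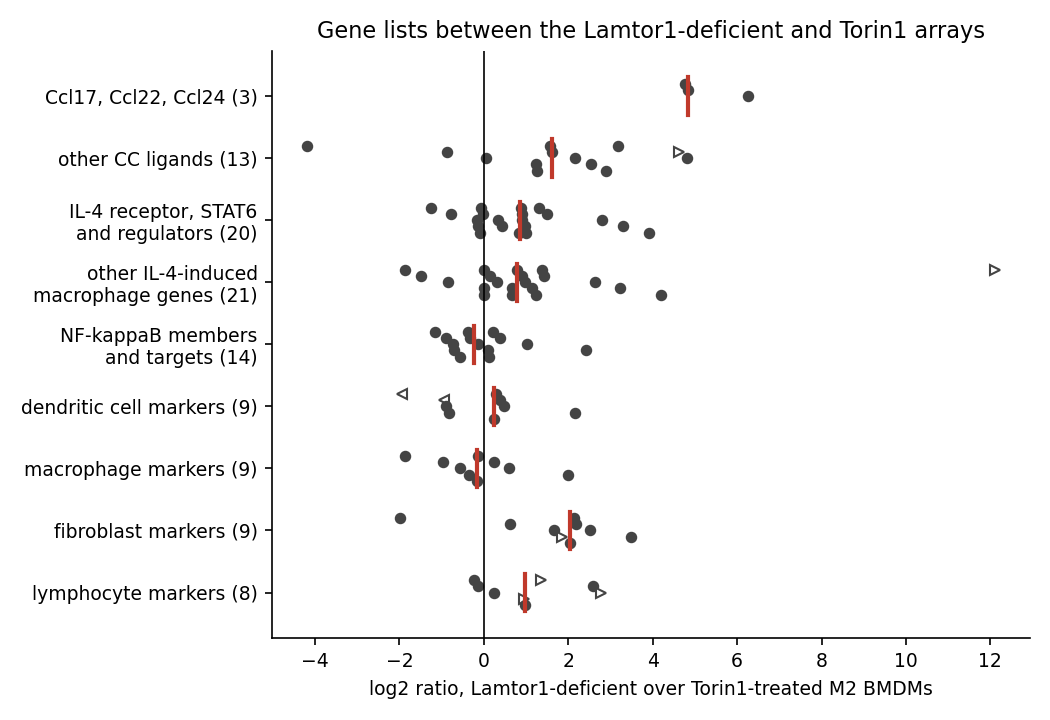
Log2 ratio of Lamtor1-deficient over Torin1-treated M2 BMDMs for each gene of 9 lists, 1 array per condition, with the number of genes above background on at least 1 of the arrays after each name. Open triangles are lower limits and red lines are medians with those genes at their limits; the members lie at 4.78, 4.85 and 6.26, and the medians of the other CC ligands and of the fibroblast markers are 1.62 and 2.04.

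Ccl17 and Ccl22 are also products of dendritic cells, so markers of other cells that a marrow culture could hold were read on the same arrays. In bulk RNA, fewer cells of a type and less RNA per cell cannot be told apart. Of 15 dendritic cell markers, 7 were well above background in M2, 7 in Lamtor1-deficient, 9 in Torin1-treated and 8 in M1 BMDMs. Ccr7, a receptor of migrating dendritic cells, was higher after Lamtor1 loss by a log2 ratio of 2.54, with 0.39 after Torin1. Fscn1 and Cd83, further markers of mature dendritic cells, had log2 ratios of 0.61 and -0.23 after Lamtor1 loss. Of 8 above background there, 2 were 2-fold or more higher and 1 lower, against 10.5% of all genes in each direction. Named after their values were seen, the second higher marker was Kit, by at least 2.14-fold, and the lower one was Amica1, by at least 3.74-fold. After Torin1, Kit was also higher, by at least 3.81-fold, as was Clec9a, by at least 3.92-fold, and Amica1 was lower, by at least 4.18-fold. These were the 2 higher and 1 lower of 10 there, against 15.0% and 15.2% of all genes. In Lamtor1-deficient over Torin1-treated BMDMs, 1 of 9 was higher and 2 were lower, against 15.0% and 13.5%. The lineage factor Zbtb46 had -0.65, and Flt3, Clec9a, Xcr1 and Cd209a were not well above background in Lamtor1-deficient BMDMs. The summed normalised signal of the list was 136 in M2, 122 in Lamtor1-deficient, 191 in Torin1-treated and 248 in M1 BMDMs, nearly all of it from Siglech and Cd83, whose levels in M2 BMDMs were 96.7 and 37.9. The part of dendritic cells in the Ccl17 and Ccl22 levels was not tested.

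Fibroblast markers were higher along with the members in the Lamtor1-deficient array than in the Torin1 array. Of 9 above background, 7 were 2-fold or more higher in Lamtor1-deficient than in Torin1-treated BMDMs and 1 was lower, against 15.0% and 13.5% of all genes, and 6 of the 7 were measured on both arrays. The median log2 ratio was 2.12, or 2.04 with the genes at their limits, against 0.06 over all genes, and median scaling adds 0.31 to each. Against M2 BMDMs, 4 of 10 were higher and 1 lower after Lamtor1 loss, against 10.5% of all genes in each direction. With Torin1, 0 were higher and 5 lower, against 15.0% and 15.2%, and 3 of the 5 were measured on both arrays. Named after their values were seen, Thy1 had log2 ratios of 1.99 and -0.19, Dcn of 1.91 and -0.61 and Col1a1 of 0.26 and -1.86 after Lamtor1 loss and Torin1. Fbln1 alone in the list was 2-fold or more above M2 after Lamtor1 loss and as far below it after Torin1. The summed normalised signal of the list was 45.1 in M2, 57.5 in Lamtor1-deficient, 17.1 in Torin1-treated and 16.4 in M1 BMDMs. Of 8 lymphocyte markers above background, 4 were higher and 0 lower in Lamtor1-deficient than in Torin1-treated BMDMs, against 15.0% and 13.5% of all genes, with a median log2 ratio of 1.74, or 0.97 with the genes at their limits, and 1 of the 4 was measured on both arrays. Cd3g, Cd8a and Ncr1 were well above background in Lamtor1-deficient BMDMs only, at processed signals of 35.0, 46.3 and 123, and the summed normalised signal of that list was between 7.59 and 15.4 on the 4 arrays. The limit of Cd3g lay under the 2-fold threshold. Of 10 macrophage markers, 4 were lower and 0 higher after Lamtor1 loss, as were 4 and 0 after Torin1, where 10.5% and 15.2% of all genes were lower, and 3 of the 4 were measured on both arrays in each comparison. Among them, Csf1r and Mertk had log2 ratios of -0.44 and 0.34 after Lamtor1 loss, and Emr1, which encodes F4/80, had -2.57 there and -2.81 after Torin1. Of 8 neutrophil markers, 6 were lower and 1 higher after Lamtor1 loss, against 10.5% of all genes in each direction. After Torin1, 6 of 7 were lower and 0 higher, against 15.2% and 15.0%, and Ccl24 was also lower on both arrays. Named after their values were seen, Cxcr2 was the higher one, with a limit of 1.42-fold, under the 2-fold threshold. Csf3r, the brightest of the list in M2 BMDMs, was within 2-fold of M2 on both arrays. Of the eosinophil, basophil and mast cell markers, 1 of 5 was higher and 2 were lower after Lamtor1 loss, and 2 of 6 were higher and 3 lower after Torin1, against 10.5% of all genes in each direction and 15.0% and 15.2%. Of these, 1 higher and 0 lower were measured on both arrays in each comparison, and the others had a signal not well above background on 1 array. The 2 lower after Lamtor1 loss, Mcpt8 and Cpa3, had limits of 1.76-fold and 1.79-fold, under the 2-fold threshold. Of 12 housekeeping genes, 0 were higher or lower after Lamtor1 loss, against 10.5% of all genes in each direction. With Torin1, 0 of them were higher and 3 lower, against 15.0% and 15.2%. The part of any of these cells in the chemokine levels was not tested.

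By their log2 ratios to M2 on the other arrays, with signals held at or above the lowest signal counted as well above background, few genes came close to Ccl17 or Ccl24 and many to Ccl22. Likeness was the largest absolute difference over the 3 ratios, among 16814 genes. For Ccl17 the nearest were 1810011H11Rik, Fdps, Sfrp4, Rasgrp3 and Cldn11, between 1.41 and 1.65 away, and 0 genes lay within 1. Fdps is an enzyme of the mevalonate pathway of sterol synthesis. For Ccl24 the nearest were Penk, S100a4, Rtn4rl1, Cyp4f18 and Asb4, between 1.36 and 1.71 away, again with 0 genes within 1. For Ccl22 they were Gm14484, Tspan10, Il17b, Mterfd3 and Gm7562, between 0.12 and 0.64 away, and 34 genes lay within 1. In its pattern, the M2 and M1 signals stand at the floor. Of the genes at or above the 75th percentile of their own array, few were not well above background on the other 3. These were 21 of 9035 in Lamtor1-deficient, 18 of 9020 in M2, 46 of 8428 in M1 and 0 of 8932 in Torin1-treated BMDMs. Ccl22 is none of them, since it was above background with Torin1. With the Euclidean distance, Rasgrp3 was nearest to Ccl17, Tspan10 to Ccl22 and S100a4 to Ccl24.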

How the data were processed

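RNA of 4 BMDM cultures was hybridized to Agilent whole mouse genome arrays in 1 colour, 1 array per condition, all on 1 slide and with the same scan date. The deposited scanner files hold intensity values per spot. The authors' processed signal is background-subtracted by Feature Extraction (10.5.1.1 per the labels, 10.7.3.1 per the file headers) and not normalized between arrays. A series-wide deposited table repeats these intensities to within 0.497%.

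As in the study's methods, signals under 1 were set to 1, each array was divided by its 75th percentile over non-control probes, and log2 was taken. Control spots and spots marked as outliers (170 to 226 per array) were left out, so between 55628 and 55676 of 55681 probes had a value. The lowest signal well above background was 21.6 in M2, 20.1 without Lamtor1, 15.7 with Torin1 and 18.8 in M1, and a lower limit, written as "at least", is taken against the higher of it and the dim probe's own signal. Spots of probes printed at least 8 times had a median SD on the log2 scale of between 0.09 and 0.12 per array. Single arrays allow no p-value. A gene counted as higher or lower at 2-fold, on its measured signals, where it was well above background on at least 1 of the arrays compared. The brightest probe stood for a gene in lists.

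The members and lists were chosen with earlier results of these data known. Genes were named by rule: the members, Lamtor1, the receptors, other CC ligands that differed 2-fold between the Lamtor1-deficient and Torin1 arrays in the direction of the members, Ccl11, fixed IL-4, M2 and dendritic cell genes, 3 neighbours on each side and the 5 most similar genes. Some genes are not reported here. Others are said to be named after their values were seen, as are the single genes of the fibroblast, lymphocyte and macrophage lists. Of the array's symbols, 21901 (93.8%) were in the RefSeq table of GRCm38.p6, used for gene order and promoters only. Alternatives are in the closing section. Calls at 2-fold were tried on a copy of the brighter M2 signals with larger planted changes, and the motif search on planted motifs. Dim signals, lower limits, lists and likeness were not tried in this way. Python 3.11.15 with NumPy 2.4.6, pandas 2.3.3 and matplotlib 3.10.9, and R 4.3.3 with limma 3.58.1, were used.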

Additional observations from a re-analysis of the deposited data

How the results depend on the processing

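With 1 array per condition, culture-to-culture variation is unknown, no array was left out and no call has a replicate check. No paired analysis was possible because each condition has a single array. Each member has 1 probe, so no other probe was tried. Signals near background limit Ccl22 most.

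The 4 comparisons gave 77 recomputed ratios of members well above background on at least 1 of the arrays compared. Of these, 60 moved by less than the scanner error, 17 moved by more and 0 changed sign. Torin1-treated over M1 BMDMs is not among them. There the log2 difference of Ccl22 was 1.87, and -0.33 with signals held at or above the lowest signal well above background. Scaling to the median moves all ratios by a constant, which was 0.06 for Lamtor1 loss, -0.25 for Torin1, -0.82 for M1 and 0.31 for Lamtor1-deficient over Torin1-treated BMDMs. With it, the log2 ratios after Torin1 were -3.90 for Ccl17 and -7.09 for Ccl24, that of Ccl24 in M1 was -6.77, and Lamtor1-deficient over Torin1-treated gave 6.57 for Ccl17, 5.09 for Ccl22 and 5.16 for Ccl24. Quantile normalization gave -6.63 for Ccl17 and -6.26 for Ccl24 in M1, and a floor at the lowest such signal gave -4.50 for Ccl17 in M1. Normexp, which adds an offset of 50, drew ratios towards 0. It gave -2.65 for Ccl17 and -5.90 for Ccl24 after Torin1, -2.69 and -5.21 in M1, 3.50 for Ccl22 after Lamtor1 loss, and 5.15, 3.10 and 3.94 for Ccl17, Ccl22 and Ccl24 in Lamtor1-deficient over Torin1-treated BMDMs.

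Of 72 recomputed counts of genes past the threshold over the whole array, 15 moved by over 1.5 times. At 3-fold, 908 were higher and 957 lower after Lamtor1 loss, 1190 and 1382 after Torin1, 2874 higher in M1, and 1198 higher and 1165 lower in Lamtor1-deficient over Torin1-treated BMDMs. Main counts in the same order were 1622, 1615, 2372, 2406, 4512, 2367 and 2134, with 4418 lower in M1. Normexp gave 1078 higher and 971 lower after Lamtor1 loss, 1379 higher after Torin1, and 1099 lower in Lamtor1-deficient over Torin1-treated BMDMs. Scaling to the median gave 2401 higher and 7036 lower in M1, and 3661 higher in Lamtor1-deficient over Torin1-treated BMDMs. Keeping dim probes gave 7137 higher in M1. The negative medians of the receptor list after Lamtor1 loss and in Lamtor1-deficient over Torin1-treated BMDMs both turned to 0.16 with dim probes kept, since 3 of its 5 probes were above background on neither array. Of 864 recomputed list counts, 787 stayed within 1.5 times, and of 432 list medians, 322 moved by less than 0.2.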

Other observations

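Several further genes of the IL-4 lists, named here after their values were seen, also differed between the Lamtor1-deficient and Torin1 arrays in the direction of the chemokines. Il13ra1, a chain of the type II IL-4 receptor, had log2 ratios to M2 of 2.18 after Lamtor1 loss and -0.63 after Torin1. Batf3, a transcription factor, had -1.53 and -4.82, and Ear11, a ribonuclease of IL-4-stimulated macrophages, had -4.38 and -7.61. Clec10a, a lectin receptor, had -2.42 and -6.61. The M2 level was the base of both ratios in each case, and with 1 array per condition these differences were not tested.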
